A study of Arabidopsis thaliana with 6 samples.

Results

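The 10 genes described here are 9 transcription factor genes and 1 dormancy gene of seed maturation in Arabidopsis thaliana, chosen by gene ID from the 34262 features of the deposited table: ABI3 (AT3G24650), LEC2 (AT1G28300), FUS3 (AT3G26790), LEC1 (AT1G21970), L1L (AT5G47670), ABI5 (AT2G36270), ABI4 (AT2G40220), WRI1 (AT3G54320), AGL15 (AT5G13790) and DOG1 (AT5G45830). Poly(A) RNA was sequenced from whole seedlings in 6 libraries, 2 for each of 3 genotypes, all in the Col-0 ecotype: the wild type, called Col-0, the lhp1-3 mutant, and importin123, a triple mutant of importin alpha by the title of the series. All plants grew with 16 h of light and 8 h of dark on medium with 0.8% sucrose and were harvested at zeitgeber time 12 h. The title of the series puts the overlap between genes misregulated in either mutant as the question. The labels give no age of the seedlings and do not say that the libraries came from separate cultures, so p-values reflect the spread of these libraries alone, which may be technical. Fewer cells of a type cannot be told apart from less RNA per cell.

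Seed maturation is the phase in which the embryo stores protein and oil, becomes tolerant of drying and enters dormancy. LEC1 and L1L, subunits of the trimeric NF-Y factors, and the B3 domain factors ABI3, FUS3 and LEC2 activate this programme, and the B3 factors bind the RY element in the promoters of storage genes. ABI5, a bZIP factor, mediates abscisic acid responses through ABRE elements in late embryos and germinating seeds. After germination the programme is shut off by the VAL repressors, by Polycomb complexes, which mark chromatin for silencing, and by the chromatin remodeller PKL. LHP1, the gene mutated in lhp1-3, encodes a protein that binds Polycomb-marked chromatin, and importin alpha proteins are adaptors that carry proteins into the nucleus.

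The promoters are shown because several of the encoded factors act through short promoter elements. The 250 bases before the annotated start were read from the RefSeq assembly TAIR10.1 and searched on both strands for the RY element CATGCA, the ABRE core ACGTG and the telobox AAACCCTA, an element found at many Polycomb targets. Overlapping matches, such as a CACGTG palindrome read on both strands, counted as 1, and capitals mark the matches. Among the regulators, 2 of 10 windows held an RY element (FUS3 and AGL15), against 8.43% of the 27443 protein-coding genes, and 1 held an ABRE core (ABI5), against 22.9%. The telobox was in 1 of 10 windows (AGL15), against 4.49% of all. These 3 regulators and 2 storage protein genes, CRA1 and CRU3, with the largest falls in lhp1-3 among the seed genes below, have these windows:
ABI5 (chr2:15207637-15207886, minus strand): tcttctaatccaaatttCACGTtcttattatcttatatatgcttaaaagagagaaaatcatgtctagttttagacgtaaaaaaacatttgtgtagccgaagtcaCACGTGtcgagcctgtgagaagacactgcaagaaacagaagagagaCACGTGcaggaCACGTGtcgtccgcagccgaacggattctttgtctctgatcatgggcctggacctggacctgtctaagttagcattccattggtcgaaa
FUS3 (chr3:9856213-9856462, minus strand): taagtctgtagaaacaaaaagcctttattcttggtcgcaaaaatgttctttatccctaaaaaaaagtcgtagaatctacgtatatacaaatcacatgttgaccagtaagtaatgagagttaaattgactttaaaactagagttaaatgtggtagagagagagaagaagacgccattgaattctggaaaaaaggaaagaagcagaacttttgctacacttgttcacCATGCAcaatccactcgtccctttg
AGL15 (chr5:4450959-4451208, minus strand): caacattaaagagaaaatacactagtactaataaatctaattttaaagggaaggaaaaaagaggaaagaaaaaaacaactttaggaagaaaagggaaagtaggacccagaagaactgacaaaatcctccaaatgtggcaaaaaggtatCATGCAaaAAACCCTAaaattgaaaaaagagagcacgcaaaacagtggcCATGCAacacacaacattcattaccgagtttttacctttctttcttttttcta
CRA1 (chr5:17758337-17758586, minus strand): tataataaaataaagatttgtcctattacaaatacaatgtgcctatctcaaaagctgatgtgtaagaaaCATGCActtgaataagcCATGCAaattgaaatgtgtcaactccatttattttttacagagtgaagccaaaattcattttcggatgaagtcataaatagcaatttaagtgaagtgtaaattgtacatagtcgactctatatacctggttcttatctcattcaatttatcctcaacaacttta
CRU3 (chr4:14087306-14087555, plus strand): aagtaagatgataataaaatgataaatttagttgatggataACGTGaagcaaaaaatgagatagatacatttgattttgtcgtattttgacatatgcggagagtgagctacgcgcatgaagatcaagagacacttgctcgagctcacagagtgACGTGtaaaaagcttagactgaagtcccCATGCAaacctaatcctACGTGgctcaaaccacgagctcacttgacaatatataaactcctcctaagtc
The ABI5 window held 4 ABRE matches, 3 of them as the full palindrome CACGTG, and the AGL15 window held 2 RY elements. ABI3, LEC2, LEC1, L1L, ABI4, WRI1 and DOG1 held none of the 3 letter strings in their windows. Of 21 storage and late seed genes, 14 held an RY element and 15 an ABRE core. A match is a description of letters and not a binding site.

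The mutant libraries carried more reads on genes of lowest level, which bears on every value below. The floor of a library is defined here as the median RPKM (reads per kb of gene span, scaled to the total count) of 2305 nuclear protein-coding genes in the lowest 10% by mean RPKM. The floor stood at 0.206 and 0.248 RPKM in the Col-0 pair of libraries, 1.52 and 1.44 in the lhp1-3 pair, and 1.79 and 1.32 in the importin123 pair. Chloroplast genes took 2.95% and 3.27% of the counts in Col-0 and 13.7% to 18.7% in the mutants. Libraries held 70137936 to 95101867 counts. In lhp1-3, LHP1 stood at 3.87 and 3.21 RPKM, against 5.46 and 5.11 in Col-0. The labels do not list the genes mutated in importin123, and IMPA1, IMPA2 and IMPA3 were taken from its name. In importin123, IMPA1 was at 3.43 and 3.06 RPKM (23.6 and 22.6 in Col-0), IMPA2 at 2.33 and 2.03 (33.2 and 31.2) and IMPA3 at 4.16 and 3.81 (11.2 and 10.4), so LHP1 and these 3 genes had lower values in the mutant than in Col-0. On deposited counts these 4 genes were called lower in both mutants (edgeR adjusted p under 0.05), where 33.5% and 33.2% of all features were. After the subtraction below, 1 of 4 was called lower in lhp1-3 and 3 of 4 in importin123. With scaling from nuclear genes of at least 10 RPKM these counts were 0 and 3. All 3 leaf and 4 root markers were at 2 floors or more in every genotype. The summed RPKM of 6 flower markers was 1.89 to 2.34 in Col-0, 44.7 to 48.6 in lhp1-3 and 9.31 to 11.9 in importin123, where none of the 6 reached 2 floors. The part of the floor in a fold change on deposited counts was not tested apart from the subtraction below.

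All 10 regulators had low levels in seedlings, and all rose in both mutants on the deposited counts. In lhp1-3 against Col-0, 10 of 10 were higher (edgeR's quasi-likelihood test, Benjamini-Hochberg adjusted p under 0.05), while 41.8% of all 33906 features tested were called higher. In importin123 against Col-0, 10 of 10 were higher, against a background of 42.3%. Their median log2 fold change was 1.90 in lhp1-3 and 1.77 in importin123, beside 0.17 and 0.20 over all features. In RPKM both mutant libraries lay above both Col-0 libraries for 10 of 10 in either mutant, as they did for 63.2% of all features in lhp1-3 and 67.1% in importin123. The Col-0 libraries are shared by both comparisons. With size factors from RLE in place of TMM the median of all features was -0.01 and 0.03, and with scaling from nuclear genes of at least 10 RPKM it was 0.87 and 0.99. The regulators' levels in floors put these rises beside the rise of the floor itself: 6 of the 10, namely LEC2, FUS3, LEC1, L1L, ABI4 and DOG1, were below 2 floors in every library. Of their 36 values, 32 lay between the 10th and 90th percentile of the low genes of the same library, and the other 4, L1L in both Col-0 libraries and ABI4 in 1 lhp1-3 and 1 importin123 library, lay above it. ABI5, WRI1, AGL15 and ABI3 stood above the floor in Col-0, at 2.45 to 8.21 floors.

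**Figure D1:**
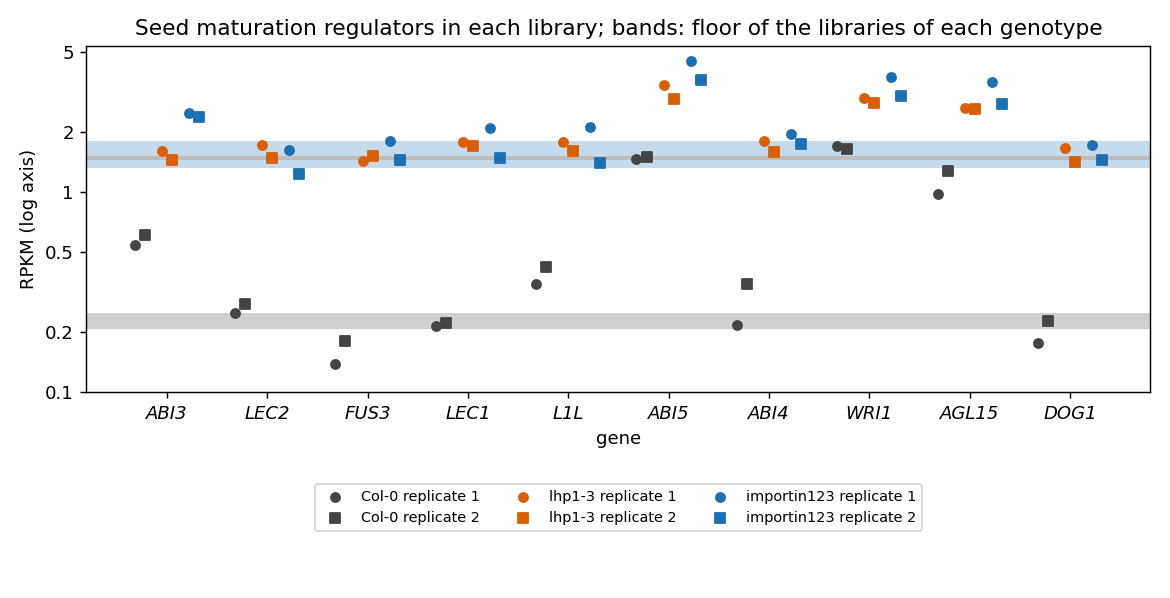
Deposited RPKM of each regulator in each of the 6 libraries on a log axis, with circles for replicate 1 and squares for replicate 2. The shaded bands span the floors of the 2 libraries of each genotype, and LEC2, FUS3, LEC1, L1L, ABI4 and DOG1 lie near the band of their own genotype while ABI5, WRI1 and AGL15 lie above it in every library.

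For the genes that stand above the floor, the reads expected from the floor over the length of each gene were subtracted from the counts before a second fit. It kept 19805 genes at least 1 floor above the floor on average over the 6 libraries and with a mean of at least 10 counts left. ABI5, AGL15 and WRI1 were kept and the other 7 regulators were not, so counts over the 3 do not describe all 10. In lhp1-3 against Col-0 1 of the 3 was called higher, where 9.83% of the genes were called higher, and in importin123 against Col-0 3 of 3 were, where 20.3% were. AGL15 passed the filter only with the Col-0 libraries counted. Without AGL15, 1 of 2 was called higher in lhp1-3 and 2 of 2 in importin123.

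ABI3, the B3 factor that links abscisic acid to storage gene activation, was the 1 regulator called different between the mutants on the deposited counts. It was listed at 0.542 and 0.609 RPKM in the Col-0 pair, 1.61 and 1.44 in the lhp1-3 pair, and 2.47 and 2.37 in the importin123 pair. In floors of the same library, it stood at 2.63 and 2.45 in the Col-0 pair, 1.05 and 0.999 in the lhp1-3 pair, and 1.38 and 1.79 in the importin123 pair. Both lhp1-3 libraries were inside the range of the low genes, while the Col-0 and importin123 libraries were above it. Among nuclear protein-coding genes it ranked at the 25.1 and 26.0 percentile in Col-0, at 10.5 and 8.24 in lhp1-3 and at 25.6 and 32.3 in importin123. On the deposited counts its log2 fold change was 0.95 ± 0.18 (SE) in lhp1-3 (edgeR adjusted p = 0.000145) and 1.54 ± 0.18 in importin123 (adjusted p = 1.12e-06), so the deposited rise in lhp1-3 went with a fall in rank. The difference of importin123 from lhp1-3 was 0.58 ± 0.17 (adjusted p = 0.0364), higher in both libraries. This call rested on the full set of 4 mutant libraries: without lhp1-3 replicate 1 the adjusted p was 0.166, without replicate 2 it was 0.288, and without importin123 replicate 1 or 2 it was 0.128 or 0.131.

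LEC2 and FUS3, the other B3 factors, which start and sustain the maturation phase, tracked the floor. LEC2 was at 0.249 and 0.276 RPKM in the Col-0 pair, 1.71 and 1.48 in the lhp1-3 pair, and 1.63 and 1.23 in the importin123 pair. FUS3 was at 0.138 and 0.181 RPKM in the Col-0 pair, 1.43 and 1.51 in the lhp1-3 pair, and 1.79 and 1.44 in the importin123 pair, which was 0.671 and 0.728 floors in Col-0 and 0.937 to 1.09 floors in the mutants. The mutant libraries lay above Col-0 for either gene, as they did for 63.2% of all features in lhp1-3 and 67.1% in importin123. Their log2 fold changes on deposited counts were 2.15 and 2.74 in lhp1-3 and 1.91 and 2.79 in importin123, with SE of 0.24 to 0.28.

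LEC1 and L1L, the NF-YB subunits of the embryo, were likewise near the floor of each library. LEC1 was at 0.214 and 0.223 RPKM in the Col-0 pair, 1.78 and 1.69 in the lhp1-3 pair, and 2.08 and 1.48 in the importin123 pair, that is 0.899 to 1.17 floors throughout. L1L was at 0.347 and 0.423 RPKM in the Col-0 pair, 1.77 and 1.61 in the lhp1-3 pair, and 2.11 and 1.39 in the importin123 pair. In floors L1L was higher in Col-0, at 1.68 and 1.70, than in lhp1-3, at 1.16 and 1.12, or importin123, at 1.18 and 1.05. L1L overlaps a gene on the same strand, AT5G47660, and one on the opposite strand, AT5G47680, and since no use of strand is stated in the sources used here their reads cannot be told apart. ABI4, an AP2-type factor in abscisic acid and sugar responses, was at 0.219 and 0.346 RPKM in the Col-0 pair, 1.80 and 1.59 in the lhp1-3 pair, and 1.95 and 1.74 in the importin123 pair, and DOG1, which sets the depth of seed dormancy, was at 0.176 and 0.226, 1.66 and 1.42, and 1.72 and 1.45 in the same order. Neither passed 1.39 floors in any library. Across these 4 genes the log2 fold change on deposited counts was 1.68 to 2.54 in lhp1-3 and 1.64 to 2.48 in importin123.

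Of the 3 regulators kept after subtraction, ABI5 had the largest fold changes over Col-0 on subtracted counts, while on deposited counts AGL15, at 0.76 in lhp1-3 and 0.95 in importin123 (log2), lay above ABI5, at 0.65 and 0.92. ABI5 was at 1.46 and 1.50 RPKM in the Col-0 pair, 3.43 and 2.93 in the lhp1-3 pair, and 4.51 and 3.63 in the importin123 pair. Both libraries of either mutant were above both Col-0 libraries, as for 63.2% of all features in lhp1-3 and 67.1% in importin123. Above the floor of the same library ABI5 stood at 1.256 and 1.253 RPKM in the Col-0 pair, 1.90 and 1.49 in the lhp1-3 pair, and 2.72 and 2.30 in the importin123 pair. Its values did not overlap between genotypes, but the share of all genes so separated was not worked out. After subtraction its log2 fold change in importin123 was 1.27 ± 0.20 (SE), a 2.42-fold rise (edgeR adjusted p = 0.00259), and it was past the threshold without any single library. In lhp1-3 it was 0.73 ± 0.20 (adjusted p = 0.0477), and this call was lost without either Col-0 library (adjusted p = 0.132 and 0.155) or either lhp1-3 library (0.232 and 0.077). Importin123 exceeded lhp1-3 by 0.54 ± 0.20, with an adjusted p of 0.0946 and an unadjusted 95% interval of 0.07 to 1.01.

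Over the 6 libraries, the genes with the profile nearest to that of ABI5, among 8174 named protein-coding genes of at least 5 CPM (counts scaled to library size), were PLL1, at a Euclidean distance of 0.119 in centred log2 CPM, and ABO6, at 0.134. PLL1 was at 1.76 and 1.78 RPKM in the Col-0 pair, 4.36 and 3.45 in the lhp1-3 pair, and 5.09 and 4.35 in the importin123 pair. The profile includes the floor, so genes low enough to follow it lie near one another.

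WRI1, the AP2-type activator of glycolysis and fatty acid synthesis genes, and AGL15, a MADS-box factor of the embryo, rose in importin123, after subtraction by less than ABI5. WRI1 was at 1.69 and 1.64 RPKM in the Col-0 pair, 2.95 and 2.80 in the lhp1-3 pair, and 3.75 and 3.01 in the importin123 pair. Above the floor these were 1.49 and 1.39 RPKM, 1.43 and 1.36, and 1.96 and 1.69, so WRI1 in lhp1-3 overlapped Col-0 once the floor was taken off. After subtraction its log2 fold change was 0.61 ± 0.17 (SE) in importin123 (edgeR adjusted p = 0.0236) and 0.26 ± 0.17 in lhp1-3 (adjusted p = 0.339, 95% interval -0.14 to 0.65). On deposited counts the lhp1-3 call (0.34 ± 0.13, adjusted p = 0.0251) was lost without any 1 of the 4 libraries compared, with adjusted p of 0.0596 to 0.0847. The subtracted call in importin123 was lost without Col-0 replicate 1 (0.0705), Col-0 replicate 2 (0.11) or importin123 replicate 1, where the log2 fold change was 0.41 (0.134).

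AGL15 was at 0.976 and 1.27 RPKM in the Col-0 pair, 2.62 and 2.60 in the lhp1-3 pair, and 3.54 and 2.74 in the importin123 pair. Above the floor it stood at 0.769 and 1.02 RPKM in the Col-0 pair, 1.09 and 1.15 in the lhp1-3 pair, and 1.76 and 1.42 in the importin123 pair. Its values did not overlap between genotypes, but the share of all genes so separated was not worked out. Its log2 fold change after subtraction was 1.10 ± 0.28 (SE) in importin123 (edgeR adjusted p = 0.0163) and 0.62 ± 0.28 in lhp1-3 (adjusted p = 0.162, 95% interval -0.02 to 1.26). The call in importin123 was lost without Col-0 replicate 1 (0.0847) or importin123 replicate 1 (0.0915). The difference between the mutants was 0.47 ± 0.27 for AGL15 (adjusted p = 0.257) and 0.36 ± 0.17 for WRI1 (adjusted p = 0.171).

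**Figure D2:**
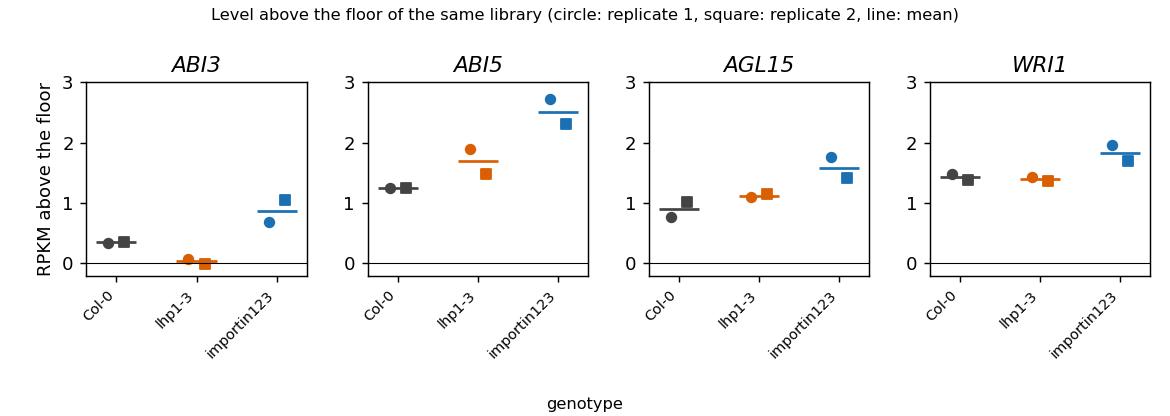
RPKM above the floor of the same library for ABI3, ABI5, AGL15 and WRI1, per library, with the mean of the 2 libraries of a genotype as a line. ABI3 in lhp1-3 lies at or near 0, and the importin123 libraries are the highest for all 4 genes.

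Compared directly, importin123 and lhp1-3 differed at 1 of 10 regulators on the deposited counts, ABI3, which was higher in importin123. Of all 33906 features tested, 3015 were called different, 962 of them higher in importin123 (2.84%) and 2053 lower. The other 9 had log2 differences of -0.24 to 0.27. In RPKM, both libraries of importin123 lay above both of lhp1-3 for 4 of 10 regulators, ABI3, ABI5, WRI1 and AGL15, as they did for 27.1% of all features, while the other 6 overlapped.

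**Figure D3:**
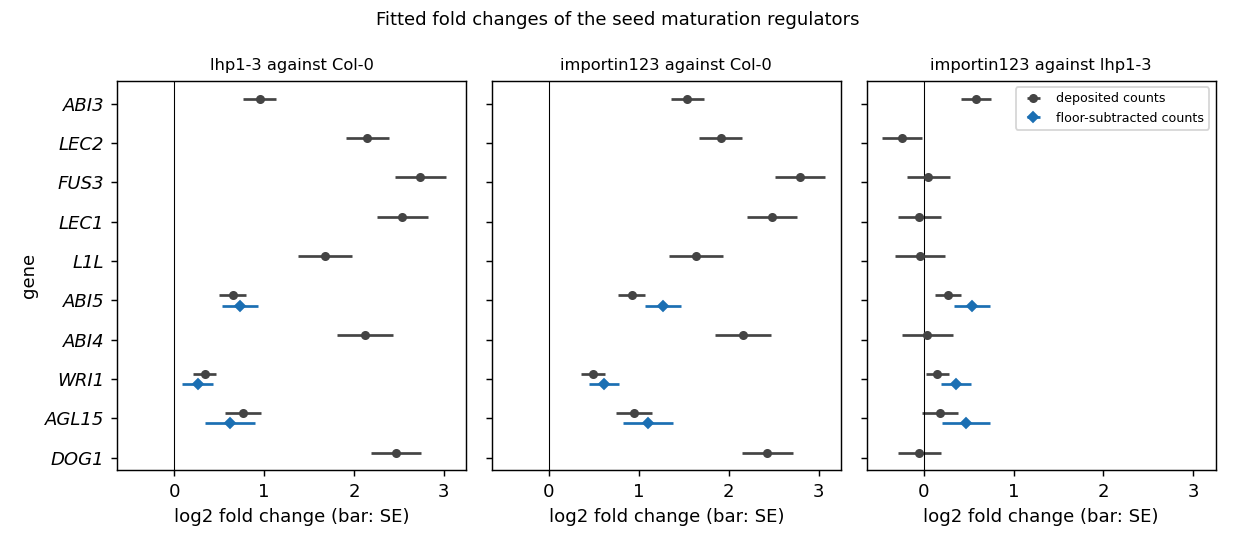
Fitted log2 fold changes with SE of the 10 regulators in the 3 comparisons, on deposited counts (circles) and, for the 3 genes kept, on floor-subtracted counts (diamonds). The 6 genes near the floor have the largest deposited rises over Col-0, from 1.64 to 2.79, and differences near 0 between the mutants.

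Several of the regulators are known to activate storage and late seed genes. Of the seed genes listed here, several fell in lhp1-3 and most of those testable rose in importin123. After subtraction, 16 of the 21 listed genes were kept. In lhp1-3 1 of the 16 rose, 6 fell and 9 were not called, where 9.83% of all genes rose and 6.26% fell, and the median log2 fold change was -1.23 beside -0.00 over all genes. In importin123 12 of 16 rose and 0 fell, where 20.3% and 21.0% did, with a median of 1.73 beside 0.01. Against lhp1-3, 16 of 16 were higher in importin123, where 8.72% of all genes were, with a median of 3.36 beside -0.01, but 9 of 16 were without either lhp1-3 library, 11 without importin123 replicate 1 and 13 without replicate 2. SESA3 and PAP85 passed the filter through their importin123 level alone, and without them 10 of 14 rose in importin123 and 14 of 14 were higher than in lhp1-3. On the deposited counts 7 rose and 8 fell in lhp1-3, where 41.8% and 33.5% of all features did, and 13 rose and 0 fell in importin123, where 42.3% and 33.2% did, of 21. Between the mutants 11 of 21 were higher in importin123 on deposited counts, where 2.84% of all features were. These libraries were in view when the list was chosen, so it is not independent evidence.

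CRA1, a cruciferin storage globulin, was at 99.8 and 114 RPKM in the Col-0 pair, 12.4 and 11.4 in the lhp1-3 pair, and 196 and 321 in the importin123 pair. CRU3, another cruciferin, was at 47.9 and 74.6, 4.36 and 3.91, and 86.9 and 175 RPKM in the same order. For both genes the 3 genotypes did not overlap, but the share of all genes so separated was not worked out. After subtraction the log2 fold change of CRA1 was -3.06 ± 0.20 (SE) in lhp1-3 (edgeR adjusted p = 0.000256) and 1.51 ± 0.19 in importin123 (adjusted p = 0.00092). That of CRU3 was -4.23 ± 0.37 in lhp1-3 (adjusted p = 0.0014) and 1.32 ± 0.33 in importin123 (adjusted p = 0.0213), the latter lost without importin123 replicate 2, where it was 0.82 (0.0746). On deposited counts the log2 fold change of CRA1 in importin123 was 0.36 without importin123 replicate 2 and 1.2 without replicate 1. CRU3 was named here after its values were seen.

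OLEO1 and OLEO2, oleosins that coat oil bodies, fell in lhp1-3 as well. OLEO1 was at 19.3 and 20.7 RPKM in the Col-0 pair, 5.43 and 5.57 in the lhp1-3 pair, and 45.1 and 47.8 in the importin123 pair, with log2 fold changes after subtraction of -2.00 ± 0.11 and 1.44 ± 0.10. OLEO2 was at 25.6 and 32.2, 7.86 and 9.05, and 36.9 and 33.8 RPKM, with -1.74 ± 0.17 in lhp1-3. The call of OLEO2 in importin123 (0.50 ± 0.16) was lost without Col-0 replicate 1 (log2 fold change 0.32), importin123 replicate 1 (log2 fold change 0.36) or either lhp1-3 library (log2 fold changes 0.50 and 0.49). Both overlap a gene on the opposite strand, as does RAB18, a dehydrin of the abscisic acid response, which was at 69.3 and 69.7 RPKM in the Col-0 pair, 40.0 and 46.0 in the lhp1-3 pair, and 334 and 656 in the importin123 pair and was named after its values were seen.

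Several seed genes that rank first by adjusted p on the deposited counts lay near the floor. CRB, a cruciferin, was at 0.249 and 0.189 RPKM in the Col-0 pair, 1.50 and 1.33 in the lhp1-3 pair, and 2.46 and 1.34 in the importin123 pair, and SESA4, a seed storage albumin, was at 0.148 and 0.321, 1.86 and 1.70, and 2.37 and 2.16. Neither was kept after subtraction. SESA3, another albumin, was at 0.265 and 0.562 RPKM in the Col-0 pair, 2.07 and 1.95 in the lhp1-3 pair, and 5.43 and 4.30 in the importin123 pair. Since SESA3 passed the filter only where it is high, its subtracted value of 4.36 in importin123 (log2) is a description, and it ran from 3.63 to 6.04 with 1 library left out. ECP63, a late embryo protein, was at 1.74 and 2.17 RPKM, 3.72 and 3.89, and 7.02 and 6.77. Its rise in importin123 was 1.89 ± 0.19 (adjusted p = 0.000361), and its call in lhp1-3 (0.73 ± 0.19, adjusted p = 0.0368) was lost without any 1 of the 6 libraries, with values of 0.54 to 0.89. The albumin genes SESA1 to SESA4 lie in tandem and resemble one another, as the cruciferins do, so reads may be split between copies. The summed RPKM of 6 seed markers, 5 of them at 2 floors or more in Col-0, was 162 to 207 in Col-0, 27.5 to 30.0 in lhp1-3 and 334 to 530 in importin123.

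**Figure D4:**
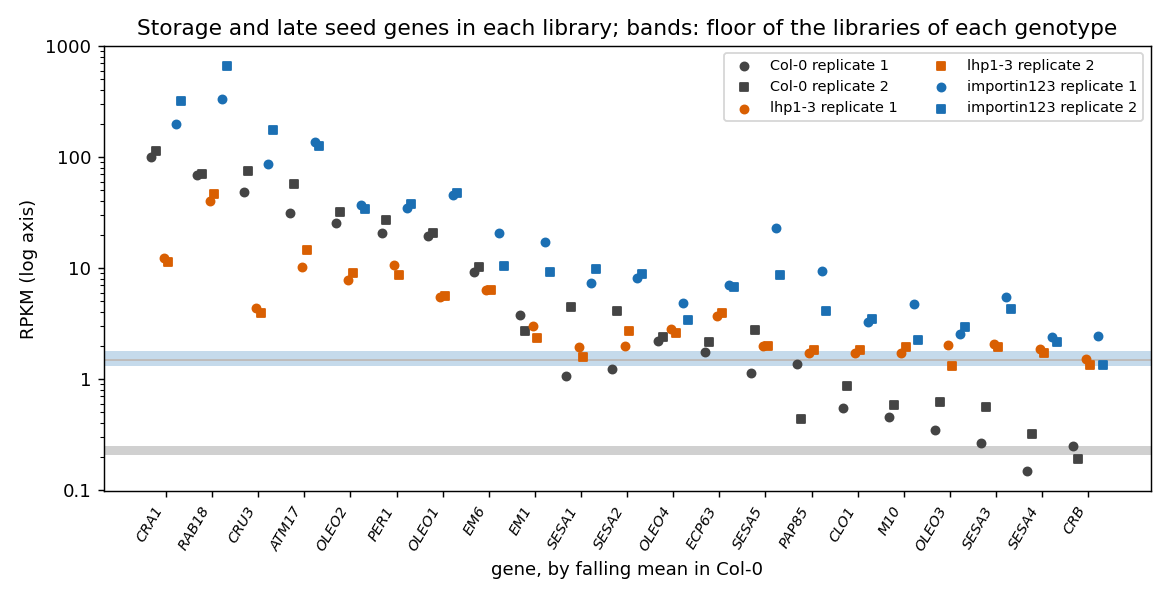
Deposited RPKM of the 21 storage and late seed genes in each library on a log axis, ordered by their mean in Col-0, with the floors of each genotype as bands. CRA1, CRU3, OLEO1 and OLEO2 lie lowest in lhp1-3 and highest in importin123, and SESA4 and CRB at the right lie near the bands.

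Of 21 repressors of the programme, 17 were kept after subtraction. In lhp1-3 4 of 17 rose and 0 fell, where 9.83% and 6.26% of all genes did, with a median log2 fold change of -0.04. Fewer rises were left without lhp1-3 replicate 1 or Col-0 replicate 2. In importin123 4 rose and 2 fell, where 20.3% and 21.0% did, with a median of 0.03. So the shares were close to or below those of all genes except for the rises in lhp1-3. In this paragraph the value in brackets after a lost call is a log2 fold change. EMF1, a plant Polycomb partner, was at 1.80 and 1.61 RPKM in the Col-0 pair, 6.36 and 4.66 in the lhp1-3 pair, and 3.77 and 4.09 in the importin123 pair, and rose by 1.74 ± 0.21 (SE, log2) in lhp1-3 and 0.93 ± 0.20 in importin123, a call lost without importin123 replicate 2 (0.77). CLF, a histone methyltransferase of Polycomb complexes, rose by 1.21 ± 0.14 in importin123 and by 0.78 ± 0.14 in lhp1-3, the latter lost without Col-0 replicate 2 (0.62) or lhp1-3 replicate 1 (0.72). PKL, named after its values were seen, was at 1.89 and 1.42 RPKM in the Col-0 pair, 5.90 and 4.30 in the lhp1-3 pair, and 4.48 and 5.26 in the importin123 pair, and rose by 1.64 ± 0.25 and 1.47 ± 0.25, the former lost without lhp1-3 replicate 1 (1.32). SWN, the sister methyltransferase of CLF and likewise named afterwards, rose by 0.69 ± 0.12 in lhp1-3, a call lost without lhp1-3 replicate 1 (0.60), and by 0.56 ± 0.12 in importin123. Its deposited counts gave 0.24 and 0.11, neither past the threshold.

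The other repressors named by rank on the deposited counts gave no such rise. RING1B, VAL3 and AT3G23060 rose on deposited counts and were not kept after subtraction, at 1.58 to 2.92 RPKM in the mutants. HAM4, MSI1 and HDA19 fell on deposited counts in lhp1-3, by 0.76, 0.65 and 0.71 on the log2 scale, and after subtraction their values were -0.23 ± 0.12, -0.07 ± 0.10 and -0.05 ± 0.10, none past the threshold. In importin123 ASIL1 and FIE, a Polycomb core subunit, fell after subtraction by 0.40 and 0.42, and each call was lost without either Col-0 library or importin123 replicate 1 (ASIL1 also without lhp1-3 replicate 1). VAL1 and VAL2, the B3 repressors, were not named by rank. They had values of -0.21 ± 0.11 and -0.08 ± 0.09 in lhp1-3 and -0.09 ± 0.11 and -0.01 ± 0.09 in importin123.

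Of 9 genes that modify ABI5, 2 rose, 3 fell and 4 were not called in importin123 after subtraction, where 20.3% and 21.0% of all genes rose and fell. Fewer falls were left without either Col-0 library or importin123 replicate 1. In lhp1-3 0 of 9 passed on subtracted counts, where 9.83% and 6.26% of all genes rose and fell. On deposited counts 7 of 9 fell in lhp1-3, where 33.5% of all features did. AFP1, an ABI5-binding protein that promotes its turnover, was at 4.30 and 4.37 RPKM in the Col-0 pair, 5.30 and 5.16 in the lhp1-3 pair, and 8.70 and 13.7 in the importin123 pair, and rose by 1.47 ± 0.21 (SE, log2; edgeR adjusted p = 0.00163). AFP4 was at 17.0 and 18.2, 17.6 and 16.8, and 8.89 and 9.90 RPKM, and fell by 0.89 (adjusted p = 0.00062). SRK2I, a SnRK2 kinase of abscisic acid signalling, and DWA1, part of a ubiquitin ligase, fell by 0.40 and 0.48, calls lost without Col-0 replicate 2 or importin123 replicate 1 for SRK2I (adjusted p = 0.0636 and 0.101) and without either Col-0 library or importin123 replicate 1 for DWA1 (0.0905, 0.0527 and 0.11). SRK2D had -0.24 ± 0.09 in lhp1-3 and -0.17 ± 0.09 in importin123, neither past the threshold.

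Of 10 bZIP genes of seed and abscisic acid responses, 9 were kept, 0 passed in lhp1-3, where 9.83% and 6.26% of all genes rose and fell, and 2 rose and 1 fell in importin123, about at or below the 20.3% and 21.0% of all genes. Without Col-0 replicate 2 or importin123 replicate 2, 0 rose, and without replicate 1 of either genotype 1 did. BZIP53, which pairs with other bZIP factors on storage gene promoters, was at 140 and 172 RPKM in the Col-0 pair, 109 and 105 in the lhp1-3 pair, and 59.0 and 67.0 in the importin123 pair, and fell by 1.08 in importin123 (edgeR adjusted p = 0.00073). BZIP25, BZIP10 and ABF4 fell on the deposited counts, and after subtraction had values between -0.09 and 0.25 in importin123 with no call. BZIP67, a partner of LEC1 and L1L complexes, was at 0.246 and 0.302 RPKM in Col-0 and 1.39 to 1.68 in the mutants and was not kept.

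Among 11 NF-Y genes, 8 were kept. In lhp1-3 0 passed, where 9.83% and 6.26% of all genes rose and fell. In importin123 2 rose and 3 fell, where 20.3% and 21.0% of all genes did. The rises were 0 to 1 with any 1 library left out, and the falls 2 to 3. NF-YB3 fell by 0.84 in importin123 (edgeR adjusted p = 0.00109) and NF-YC4 by 0.77 (adjusted p = 0.00145), from 36.0 and 32.5 and from 20.8 and 18.8 RPKM in Col-0 to 16.1 and 18.9 and to 10.4 and 11.9. NF-YB8 fell by 0.55, a call lost without any 1 Col-0 or importin123 library, and NF-YC9 rose by 0.29, a call lost without any 1 of the 6. NF-YB4, NF-YB5 and NF-YB7 were at 0.275 to 0.912 RPKM in Col-0 and 1.54 to 3.49 in the mutants and were not kept.

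Of 13 genes listed with WRI1, namely its relatives WRI3 and WRI4 and glycolysis and lipid genes listed as its targets, 12 were kept. In lhp1-3 0 passed, where 9.83% and 6.26% of all genes rose and fell. In importin123 1 rose and 2 fell, below the 20.3% and 21.0% of all genes, with a median log2 fold change of -0.06 beside 0.01. With 1 library left out, 0 to 2 rose and 0 to 2 fell. PKP-ALPHA, a plastid pyruvate kinase subunit, was at 105 and 107 RPKM in the Col-0 pair, 67.1 and 73.6 in the lhp1-3 pair, and 65.0 and 73.4 in the importin123 pair, and after subtraction had -0.32 ± 0.11 (SE) and -0.39 ± 0.11, the latter past the threshold (edgeR adjusted p = 0.0278) and lost without any Col-0 or importin123 library. PKP-BETA1 and PDH-E1-ALPHA had -0.25 ± 0.12 and -0.23 ± 0.12 in importin123, and ACP1, an acyl carrier protein, had 0.47 ± 0.13 (adjusted p = 0.0209), lost without Col-0 replicate 2 or importin123 replicate 1 (0.128 and 0.112). SUS2, a sucrose synthase, was at 0.435 and 0.370 RPKM in Col-0 and 1.63 to 1.98 in the mutants and was not kept.

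Of the 6 genes related to DOG1, AT4G18650, AT4G18660, AT4G18680 and AT4G18690 were at 0.238 to 0.455 RPKM in Col-0 and 1.47 to 3.77 in the mutants and, with AHG1, were not kept. AHG3, a phosphatase that DOG1 binds, was at 33.6 and 39.8 RPKM in the Col-0 pair, 32.4 and 29.3 in the lhp1-3 pair, and 47.3 and 65.7 in the importin123 pair, and rose in importin123 by 0.84 ± 0.14 (SE, log2; edgeR adjusted p = 0.00334) while lhp1-3 gave -0.02 ± 0.14. AGL18, the closest relative of AGL15, and GA2OX6, a gibberellin oxidase and AGL15 target, fell on deposited counts in both mutants, by 0.52 to 0.71 on the log2 scale, and had -0.56 to -0.30 after subtraction with no call. For AGL18 and GA2OX6 the sign turned under scaling from nuclear genes of at least 10 RPKM.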

How the data were processed

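Total RNA from whole seedlings was treated with DNase and 500 ng per library was poly(A)-selected, per the labels' protocols. The authors deposited whole-number counts per gene and RPKM values for 34262 features. The submitters' processing notes name build TAIR10 with HISAT2, bedtools, SAMtools, FastQC and edgeR. Versions, settings and strandedness were not given in the sources used here. Per the file, RPKM as deposited divide by the full gene span, introns included, and by the column total. Groups came from the sample titles.

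Counts were tested with edgeR 4.0.16 in R 4.3.3 (filterByExpr, TMM, robust quasi-likelihood fit on all 6 libraries, 1 coefficient per genotype, two-sided, Benjamini-Hochberg adjusted p under 0.05 over 33906 features). The SE of a log2 fold change was its size over the square root of F, and 95% intervals used the t quantile at the test's degrees of freedom. Replicates correlated at 0.993 to 0.996 (Pearson, log2 CPM) and differed by more than sampling noise. The floor (median reads per kb over 2305 low genes of at least 1000 bp, the regulators left out) was subtracted in proportion to gene length, without rounding. A gene with fewer reads than the floor in a library was left with none there. Precision is limited by 2 libraries per genotype (70137936 to 95101867 counts each) and, for regulators near the floor, by counts as low as 23 in a library. Alternatives included DESeq2 1.42.0. The fits were also run on simulated data, with changes planted in genes of higher counts and the floor added in the form later subtracted. That run cannot show whether the subtraction holds for the real libraries or for regulators near the floor.

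The regulators and all gene lists were chosen with earlier results of these data known. Named genes were all 10 regulators, the mutated genes, up to 3 genes per list, direction and mutant with the smallest adjusted p on deposited counts, and the 2 nearest profiles of any regulator at 2 floors or more in every genotype, which ABI5 alone met. CRU3, RAB18, PKL and SWN are marked as named after their values were seen. Genes such as VAL1, VAL2, PAP85 and AHG1 also lie outside this rule and are not so marked. Promoters and gene overlaps came from RefSeq TAIR10.1, where the gene span equalled the deposited length plus 1 for 27443 of 27444 genes.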

Additional observations from a re-analysis of the deposited data

How the results depend on the processing

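With each library left out in turn, the number of regulators called on deposited counts was 9 to 10 in lhp1-3, 10 in importin123 and 0 to 1 between the mutants, and all features called were 20076 to 25287, 21068 to 24625 and 1212 to 4131. After floor subtraction the regulators called were 1 in lhp1-3, 3 in importin123 and 0 between the mutants, with 3186 and 8174 genes called over Col-0. With each library also left out these were 0 to 1, 1 to 3 and 0, and 890 to 3058, 5136 to 7817 and 2043 to 4393. With the floor lowered by 25% the regulators called were 2, 3 and 0 and the genes 6252 and 10306. With the floor raised by 25% they were 0, 1 and 0 and the genes 2265 and 7176. Keeping genes at least 0.25 floors above the floor, an alternative chosen after seeing the data as was leaving out libraries after subtraction, gave 0 and 3 regulators and 3721 and 8980 genes, and 1 regulator (ABI3) and 4019 genes between the mutants, and ABI3 then had -2.81 in lhp1-3, with 1 lhp1-3 library at the floor, so its size depends on the prior count. Same-numbered libraries deviated together at correlations of -0.09, -0.09 and 0.04, so the numbers do not pair them. A replicate block left 0 regulators called between the mutants (ABI3 0.58, edgeR adjusted p = 0.0599) and 25103, 25201 and 3017 features in the 3 comparisons. DESeq2 and RLE size factors lost WRI1 in lhp1-3 (log2 fold change 0.16 each), and DESeq2 lost WRI1 in importin123 (log2 fold change 0.31).

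Apart from ABI3 above, the values that turned in sign lay within 0.31 of 0 where no library was left out, and 1 of them, BZIP10 in importin123 under nuclear scaling, passed the threshold in the new direction (edgeR adjusted p = 0.0196). Between the mutants, scaling from nuclear genes of at least 10 RPKM gave LEC1 0.05, L1L 0.06 and DOG1 0.04, and leaving out 1 library gave FUS3 -0.03 to 0.16, LEC1 -0.23 to 0.14, L1L -0.28 to 0.20, ABI4 -0.01 to 0.13 and DOG1 -0.12 to 0.07. Under that scaling lhp1-3 gave MSI1 0.05, ABF4 0.14, BZIP25 0.14, NF-YC9 0.07, AHG3 0.01, AGL18 0.12, GA2OX6 0.20, DWA1 0.19 and AFP4 0.22, and importin123 gave FIE 0.19, BZIP25 0.05, BZIP10 0.31, NF-YB8 0.10, GA2OX6 0.09, AGL18 0.25 and DWA1 0.03. That scaling called 21929 features higher and 1613 lower in lhp1-3 and 23462 and 2915 in importin123, against 14172 and 11368, and 14351 and 11251, with TMM, and 13036 and 13390, and 13165 and 13094, with RLE. Floor subtraction gave BZIP25 0.06 and AFP4 0.15 in lhp1-3 and BZIP10 0.13 in importin123. With the floor lowered by 25% these were 0.04 for AFP4 and 0.03 for BZIP10, with the floor raised by 25% BZIP25 0.11, AFP4 0.21, BZIP10 0.19, HDA19 0.02, NF-YC9 0.02 and AHG3 0.06, and with genes 0.25 floors above it BZIP25 0.01, AFP4 0.10 and BZIP10 0.07. Over fits without 1 library, on deposited or subtracted counts, the range in lhp1-3 was -0.81 to 0.03 for HDA19, -0.65 to 0.15 for BZIP25, -0.71 to 0.01 for NF-YC9, -0.91 to 0.03 for ACP1, -0.84 to 0.10 for AHG3 and -0.55 to 0.19 for AFP4, and in importin123 -0.58 to 0.20 for BZIP10 and -0.02 to 1.69 for CRU3. SWN in importin123 was -0.06 with RLE and with DESeq2. The cause of these changes was not tested.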
